A study of Mus musculus with 9 samples.

Results

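Amino acid transporters of 6 solute carrier families, Slc1, Slc3, Slc7, Slc36, Slc38 and Slc43, were followed in mouse basophils at rest, after cytokine stimulation, and after the same stimulation under a phosphodiesterase inhibitor. Members were taken by symbol alone: every entry that starts with Slc1a, Slc3a, Slc7a, Slc36a, Slc38a or Slc43a and goes on with a number, which gave 42 of the 35673 symbols in the expression table. A member was counted as measured with at least 10 counts in 3 or more of the 9 libraries, and 34 were. Of these, 33 entered the test, since Slc3a1 was measured but fell under the filter of the fit. Of the 42 symbols 3 end in "os" (Slc7a6os, Slc36a1os and Slc36a3os) and name neighbouring genes on the opposite strand, not transporters, which leaves 39 transporter symbols.

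The cells were basophils grown from the bone marrow of wild-type C57BL/6J mice over 7 days in interleukin-3 (IL-3, 0.3 ng/mL) and enriched on magnetic particles for CD49b, a surface integrin chain of basophils that NK cells also carry. All 3 groups share this earlier IL-3 culture. Aliquots of 10000 cells were kept for 4 hours with PBS and the solvent DMSO (resting), with 10 ng/mL IL-3 plus 10 ng/mL IL-33 and DMSO (stimulated), or with both cytokines and 3 µM difamilast (difamilast), which blocks PDE4, an enzyme that breaks down cyclic AMP. Each group has 3 libraries, nothing in the labels says whether they came from separate mice or cultures, so p-values cover no more than the spread among these libraries, which may be technical. Unstimulated cells under difamilast were not analysed here.

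Amino acid transporters differ in what they carry and in how they are built. The Slc7 family holds the cationic transporters, which work alone, and the light chains, which reach the membrane bound to a heavy chain of the Slc3 family and exchange 1 amino acid for another. Members of Slc1 and Slc38 use the sodium gradient to load cells with glutamate, or with neutral amino acids such as glutamine. Slc36 members are proton-coupled and work partly on lysosomes, and Slc43a1 and Slc43a2 of the Slc43 family let large neutral amino acids pass without exchange. In lymphocytes and macrophages such transporters are known to be induced when cells are activated, and lysosomal members report amino acid supply to the growth kinase complex mTORC1.

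The measured members were spread unevenly over the families. All 6 Slc1 symbols, both Slc3 symbols, all 3 Slc43 symbols, 12 of 15 Slc7 symbols, 7 of 10 Slc38 symbols and 4 of 6 Slc36 symbols were measured. Those not measured were Slc7a9, Slc7a10, Slc7a13, Slc36a3, Slc36a3os, Slc38a3, Slc38a5 and Slc38a8, and the highest count of any of them in any library was 18. Just inside the limit were Slc3a1 and Slc7a3, each with 10 or more counts in 3 libraries, and just outside it were Slc38a5 and Slc38a8, each with 10 or more in 1 library. Among the measured members, 19 reached 10 CPM (counts scaled by library size after TMM normalisation) in at least 1 group, and 13 stayed under 5 CPM in every group.

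Promoter sequence from RefSeq (assembly GRCm38.p6) was at hand for 32 of the 42 symbols, in 41 windows. No window was at hand for Slc7a5, Slc43a3, Slc7a2, Slc1a5 and Slc38a1, among others, so their promoters were not searched. Of the members with a window, 3 are shown because they moved in different comparisons: Slc7a11 and Slc3a2 under difamilast and Slc7a1 with stimulation. Each line gives the 250 bases before the start site, 5′ to 3′ on the gene's strand, with matches to the searched letters in capitals. The stretches lie at chr3:50443614-50443863 (minus strand) for Slc7a11, chr19:8713898-8714147 (minus strand) for Slc3a2 and chr5:148399905-148400154 (minus strand) for Slc7a1. The Slc3a2 stretch lies inside the annotated gene (chr19:8706882-8723369), before an internal start. Bases before the outer annotated end of Slc3a2 were not searched.
Slc7a11: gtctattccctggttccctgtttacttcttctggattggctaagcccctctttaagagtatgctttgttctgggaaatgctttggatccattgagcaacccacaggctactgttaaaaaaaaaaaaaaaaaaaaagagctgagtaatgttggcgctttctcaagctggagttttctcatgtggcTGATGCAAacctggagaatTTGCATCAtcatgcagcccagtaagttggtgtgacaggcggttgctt
Slc3a2: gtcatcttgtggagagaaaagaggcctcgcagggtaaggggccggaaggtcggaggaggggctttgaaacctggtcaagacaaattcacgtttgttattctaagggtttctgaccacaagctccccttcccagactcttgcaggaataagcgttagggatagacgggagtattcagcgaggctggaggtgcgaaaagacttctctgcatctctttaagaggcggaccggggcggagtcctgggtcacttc
Slc7a1: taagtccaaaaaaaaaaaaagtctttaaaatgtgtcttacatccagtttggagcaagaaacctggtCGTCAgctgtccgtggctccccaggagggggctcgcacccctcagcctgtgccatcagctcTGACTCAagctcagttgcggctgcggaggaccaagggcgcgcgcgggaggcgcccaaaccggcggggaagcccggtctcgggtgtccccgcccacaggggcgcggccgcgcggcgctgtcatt

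The searched letters were the cyclic AMP response element TGACGTCA, its core TGACG, the E-box CACGTG, the C/EBP-ATF composite element TGATGCAA, the AP-1 element TGANTCA and the kappaB element, each on both strands over the window of 300 bases (250 before the start and 50 after it). Every full cyclic AMP response element also holds the core. Slc7a11, the cystine and glutamate exchanger, held the composite element at 2 places, with its first base at -66 on the forward strand and at -47 on the reverse strand. The composite letters were in the windows of 3 of the 32 members (9.38%: Slc1a4, Slc7a11 and Slc7a7) and in those of 1.03% of all genes with a window. Slc7a1 held the core element, with its first base at -184 on the reverse strand and at 15 on the forward strand (past the start and so not in the printed stretch), and the AP-1 letters at -123. The Slc3a2 window, which belongs to an internal start, held none of the 6. The core was in 10 members (31.2%, against 23.0% of all genes), the full response element in Slc38a6 alone (3.12% against 2.03%), the E-box in 6 members (18.8% against 8.09%), AP-1 in 4 (12.5% against 8.97%) and kappaB in 0 of 32 (against 1.89%). These are matches of letters and were not set against any binding data. The member shares leave out symbols without a window, Slc7a5, Slc43a3 and Slc7a2 among them.

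Depth and the levels of cell type markers differed between groups. Total counts ran from 6261446 to 38098584 per library, and the TMM factors lay between 1.23 and 1.32 in resting libraries and between 0.85 and 0.92 in the other 6. The summed level of 10 basophil markers was 4326 to 5805 CPM in resting, 9595 to 10283 CPM in stimulated and 9381 to 9536 CPM in difamilast libraries, and none of the 10 was at 0 or under 1 CPM throughout. Markers of monocytes and macrophages (12 genes) summed to 6614 to 8180 CPM, 5078 to 5378 CPM and 4894 to 5300 CPM in the same order, so the preparation also held transcripts of those cells. With stimulation 8 of those 12 fell and 0 rose (66.7% called, against 31.7% of all tested genes). Under difamilast 0 of 12 were called, where 3.44% of all tested genes were. Of the 10 basophil markers 7 rose and 1 fell with stimulation (80% called). The one that fell was Itga2 (CD49b), from a mean of 21.9 to 12.4 CPM. Under difamilast 1 of the 10 basophil markers was called, Ms4a2, which was lower (10%). None of the 9 marker lists had a gene at 0 in every library. Mcpt4 and Mrgprb2 of mast cells, Epx and Ear6 of eosinophils, Klrb1c of NK cells and Klf1 of erythroid cells stayed under 1 CPM throughout. The mast cell list still summed to 953 to 1345, 1737 to 1875 and 1656 to 1995 CPM in resting, stimulated and difamilast libraries. In the same order the dendritic cell list summed to 1764 to 2255, 1915 to 2030 and 2069 to 2187 CPM. The erythroid cell and megakaryocyte list summed to 464 to 664, 290 to 410 and 383 to 458 CPM. The neutrophil, eosinophil, NK and T cell, and B cell lists each summed to at most 176 CPM in any library. In bulk libraries fewer cells of a type and less RNA per cell cannot be told apart, and the part of these shifts in the results below was not tested.

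Stimulation changed the transporter set in both directions. Among members above 5 CPM the largest rises were those of Slc43a3, known as a purine nucleobase transporter and not for amino acids, at 5.95-fold, Slc7a1 at 2.90-fold and Slc7a2 at 2.58-fold, the last 2 being the cationic transporters that bring arginine and lysine into cells. The deepest fall was in Slc43a2, a uniporter of large neutral amino acids, which was 3.99-fold lower. All 3 tested Slc36 transporters fell, as did Slc38a1, Slc38a7 and Slc38a9 of the Slc38 family and the light chain Slc7a7, the calls of Slc38a9 and Slc7a7 being lost without some single libraries, as given below. In the quasi-likelihood test of edgeR, adjusted after Benjamini and Hochberg over 21341 tested genes (the source of every adjusted p here) and called at 0.05, 9 of 33 tested members rose, 8 fell and 16 were not called. The called share was 51.5% of the members against 31.7% of all tested genes (15.3% higher and 16.4% lower). Without the symbols ending in "os", 8 of 31 tested transporter symbols rose and 8 fell (51.6%). The median log2 fold change was 0.09 over the members and 0.06 over all tested genes, and the groups did not overlap for 21 members (63.6%, against 43.7% of all tested genes).

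Under difamilast 3 members rose and 1 fell against stimulated cells. Slc7a5, the large neutral amino acid exchanger LAT1, rose 1.87-fold, Slc7a11 rose 1.67-fold and Slc3a2, the heavy chain CD98 that both are known to bind, rose 1.49-fold. Slc43a3 was 1.61-fold lower under difamilast than in stimulated cells. The other 29 tested members were not called, so the called share was 12.1% against 3.44% of all tested genes (2.21% higher and 1.24% lower). The groups did not overlap for 8 members (24.2%), a share near the 24.8% of all tested genes, and the median log2 fold change was 0.00 for the members and for all genes. Slc43a3 was the only member called in both comparisons, which share the stimulated libraries.

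**Figure D1:**
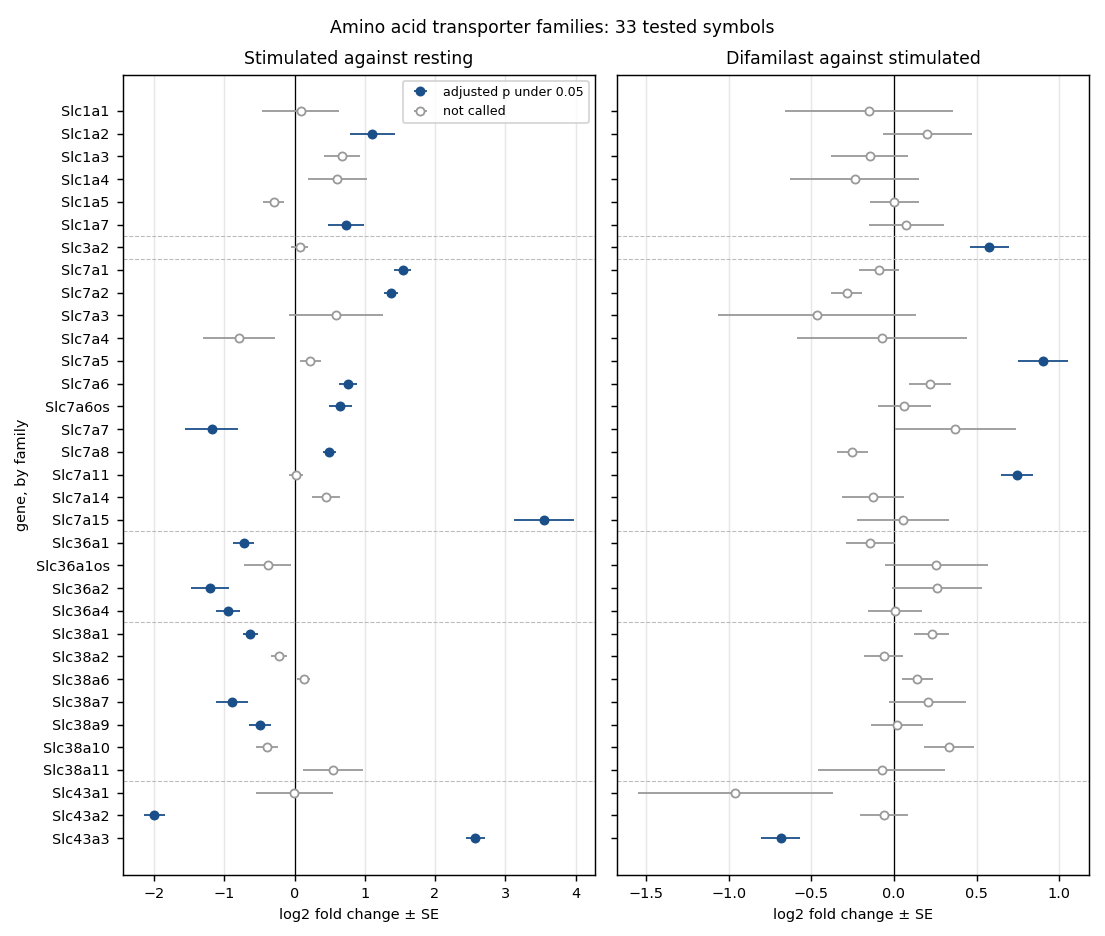
Log2 fold change ± SE of the 33 tested members for stimulated against resting (left) and difamilast against stimulated (right), grouped by family with dashed lines between families and filled circles for adjusted p under 0.05. Filled points lie on both sides of 0 on the left (9 higher, 8 lower), while on the right only Slc3a2, Slc7a5, Slc7a11 and Slc43a3 are filled.

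The size of these counts rests on how resting libraries are scaled against the others. Where library totals were used without TMM, an alternative chosen once values were known, the median log2 fold change of all genes moved by -0.53 for stimulated against resting and by 0.02 for difamilast against stimulated. The stimulation split was then 4 members higher and 16 lower, and the share of higher genes among all called genes went from 48.3% to 13.2%. The difamilast split stayed at 3 and 1. Directions for stimulation given below are therefore relative to the TMM-scaled bulk of genes, and members that changed call under library totals are named where they are described.

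Slc3a2 encodes the heavy chain that carries the light chains Slc7a5, Slc7a6, Slc7a7, Slc7a8, Slc7a10 and Slc7a11 to the cell surface (chr19:8706882-8723369 in the GRCm38 annotation). It stood at 710.3, 587 and 632 CPM in the resting libraries, at 679, 652 and 698 CPM in the stimulated libraries and at 1113, 1078 and 833 CPM in the difamilast libraries. The resting and stimulated libraries overlapped, and all 3 difamilast libraries lay above all others. Stimulation moved it by 0.07 ± 0.12 on the log2 scale (± SE here and below, adjusted p = 0.687), which was -0.46 under library totals (adjusted p = 0.013). Difamilast gave 0.58 ± 0.12 (adjusted p = 0.0116). That call was lost when any of the 3 stimulated libraries or difamilast replicate 1 or 2 was left out, with log2 fold changes of 0.51 to 0.60 and adjusted p from 0.0521 to 0.0918. Slc3a2 was the most abundant member per kilobase of transcript in every group, at 229 ± 22.2, 240.4 ± 8.10 and 358 ± 54.2 CPM per kb (SD, n = 3) in resting, stimulated and difamilast cells. The related heavy chain Slc3a1, which pairs with the kidney light chain Slc7a9, had at most 17 counts in a library. Slc3a1 shares 601 exonic bases with Prepl on the opposite strand, and the use of strand in the counting is not given. Prepl stood at 10.6, 6.52 and 6.16 CPM in resting, stimulated and difamilast cells.

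Slc7a5 (chr8:121881150-121907694) exchanges leucine, tryptophan, histidine and other large neutral amino acids and is a main source of leucine for mTORC1 in activated lymphocytes. Its level was 300.4, 196 and 183 CPM at rest, 255, 260.0 and 279.7 CPM after stimulation and 512, 514 and 456 CPM under difamilast. Resting replicate 1 stood above the other 2 resting libraries and above every stimulated library. All difamilast libraries stood apart at the top. Difamilast against stimulated gave a log2 fold change of 0.90 ± 0.15 (adjusted p = 0.00249), called with every library left out in turn. For stimulated against resting the value was 0.23 ± 0.15 (adjusted p = 0.288). Without resting replicate 1 it was 0.45 (adjusted p = 0.000385), so that library decides whether a rise with stimulation is called. Over all alternatives the value ran from -0.31 to 0.45, so the direction also depended on the setting.

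Slc7a11 (chr3:49892526-50443614), known as xCT, brings in cystine for glutathione synthesis in exchange for glutamate, and its upstream stretch with 2 composite elements is printed above. Resting libraries gave 179.6, 153 and 187 CPM, stimulated libraries 172, 176 and 179.7 CPM and difamilast libraries 293, 300.2 and 290.3 CPM. The difamilast values were tightly grouped and far above both other groups, which overlapped. The log2 fold change under difamilast was 0.74 ± 0.10 (adjusted p = 0.000324), called with every library left out in turn. With stimulation it was 0.02 ± 0.10 (adjusted p = 0.898), or -0.51 under library totals (adjusted p = 0.00191).

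The other light chains moved differently. Slc7a8 (chr14:54722209-54781946), the exchanger LAT2 with a broader choice of neutral amino acids, was at 261, 229 and 247 CPM at rest, 343, 352 and 345 CPM after stimulation and 311, 284 and 278 CPM under difamilast. Stimulated libraries were all above the resting libraries, by a log2 fold change of 0.50 ± 0.10 (adjusted p = 0.000956), a rise that was gone under library totals at -0.03. Difamilast libraries all lay below the stimulated libraries, at -0.25 ± 0.10, which was not called (adjusted p = 0.215) but was called in a fit of those 2 groups alone (adjusted p = 0.0486) and without resting replicate 1 (adjusted p = 0.0355). Slc7a6 (chr8:106168857-106198706), the exchanger y+LAT2 that trades arginine for neutral amino acids and sodium, was at 65.0, 49.7 and 48.0 CPM, then 87.7, 97.8 and 90.6 CPM, and 114, 113 and 95.2 CPM under difamilast. It rose with stimulation by 0.76 ± 0.13 (adjusted p = 0.000307, 0.23 and not called under library totals) with no overlap, and the difamilast value of 0.22 ± 0.13 was not called (adjusted p = 0.463).

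Slc7a7 (chr14:54369442-54417780), the sister exchanger y+LAT1 of macrophages and epithelia, was near the detection limit with 5.38, 2.53 and 2.53 CPM at rest, 0.666, 2.11 and 1.52 CPM after stimulation and 2.38, 1.64 and 1.99 CPM under difamilast. Its log2 fold change with stimulation was -1.18 ± 0.37 (adjusted p = 0.0241). The call was lost without resting replicate 1 (-0.74, adjusted p = 0.154), stimulated replicate 1 (-0.99, adjusted p = 0.0616) or stimulated replicate 3 (-1.17, adjusted p = 0.0712). The gene shares 232 exonic bases with Oxa1l on the opposite strand, which stood at 39.7, 26.1 and 25.9 CPM in resting, stimulated and difamilast cells, and the use of strand in the counting is not given in the sources used here. Markers of monocytes and macrophages also fell with stimulation, as listed above, and their part in this fall was not tested.

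**Figure D2:**
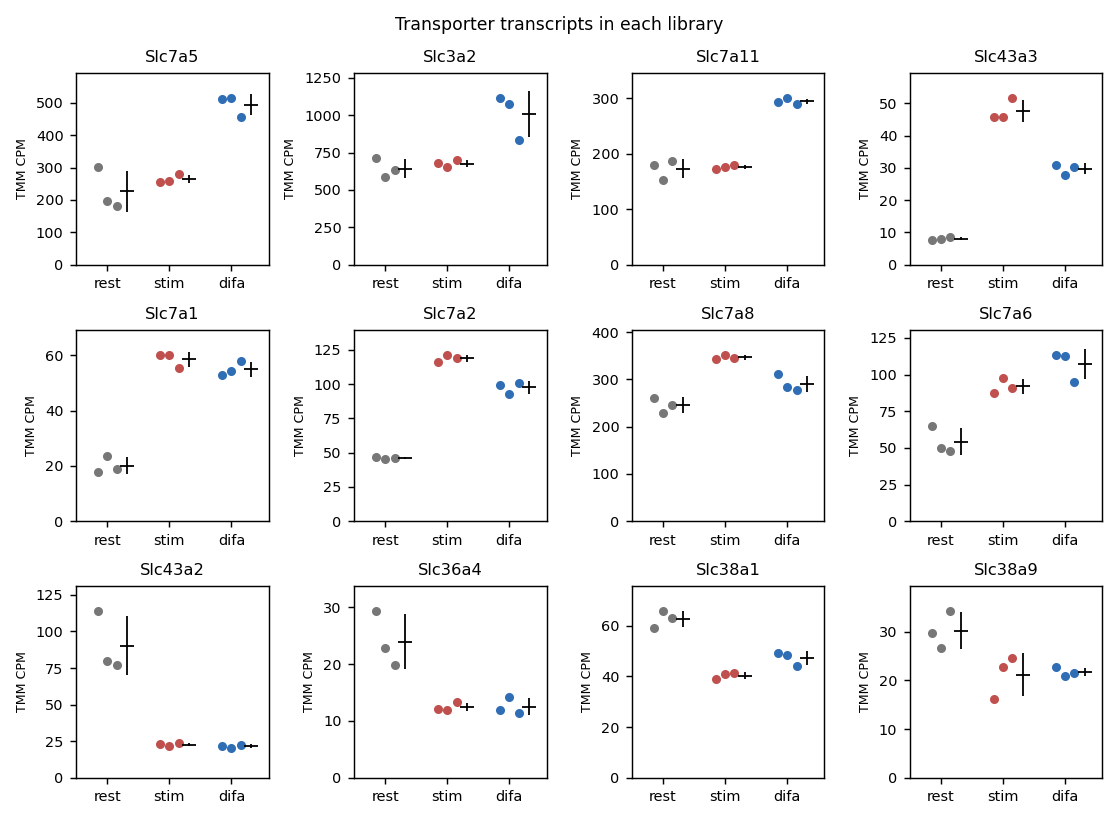
TMM-normalised CPM of 12 transporter transcripts in each library (circles) with mean ± SD over 3 libraries (crosses), for resting (rest), stimulated (stim) and difamilast (difa) cells, each axis starting at 0. The 3 difamilast libraries lie highest for Slc7a5, Slc3a2 and Slc7a11, between the other groups for Slc43a3, and beside the stimulated libraries for Slc7a1 and Slc43a2.

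Set per kilobase of transcript, the makeup of the light chains that Slc3a2 can carry shifted between groups. The 6 light chains summed to 159 ± 25.4 CPM per kb at rest, 204 ± 4.97 after stimulation and 273 ± 15.4 under difamilast (SD, n = 3). Their ratio to Slc3a2 was 0.695 ± 0.0481, 0.851 ± 0.0345 and 0.770 ± 0.0803, so the heavy chain transcript exceeded the summed light chain transcripts in every group. Slc7a5 made up 45.3%, 39.0% and 35.4% of the light chain sum in resting libraries, 36.4%, 35.8% and 38.2% in stimulated libraries and 51.1%, 52.4% and 50.8% in difamilast libraries. The difamilast shares lay above all 6 others. Slc7a8 showed the reverse, with 33.9%, 39.3% and 41.2% at rest, 42.2%, 41.8% and 40.5% after stimulation and 26.7%, 24.9% and 26.6% under difamilast. These shares were not tested, rest on the longest annotated transcript of each gene, and depend on the same values as the fold changes above.

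The order of levels per kilobase put Slc3a2 first, followed by Slc7a5 and Slc7a8. At rest Slc7a5 (64.4 ± 18.3 CPM per kb) and Slc7a8 (60.1 ± 3.98) lay within each other's spread. After stimulation Slc7a8 was ahead (84.8 ± 1.24 against 75.3 ± 3.73), and under difamilast Slc7a5 was (141 ± 9.33 against 71.2 ± 4.23). Slc7a11 moved from the seventh place in stimulated cells (19.1 ± 0.428 CPM per kb) to the fourth under difamilast (31.9 ± 0.564). In stimulated cells Slc7a11, Slc38a2 (19.0 ± 1.98), Slc38a10 (18.5 ± 1.65) and Slc43a3 (18.2 ± 1.30) did not differ beyond their spread.

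**Figure D3:**
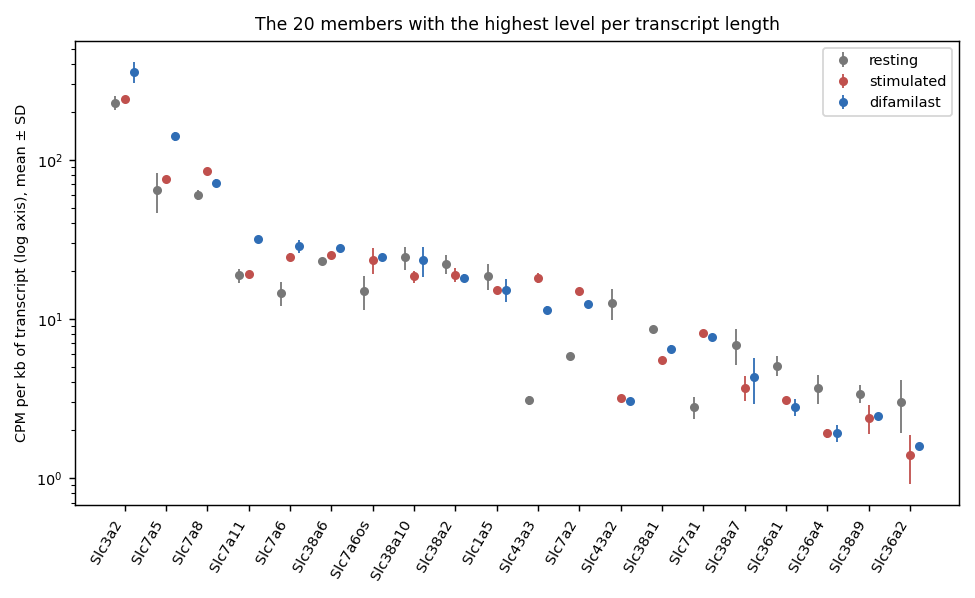
Mean ± SD (n = 3) of CPM per kilobase of longest transcript on a log axis for the 20 members with the highest levels, in resting, stimulated and difamilast cells. Slc3a2 lies highest in every group (229, 240.4 and 358 CPM per kb), and Slc7a5 and Slc7a8 change places between groups.

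The cationic transporters Slc7a1 and Slc7a2 rose with stimulation and were not called under difamilast. Slc7a1 (chr5:148327410-148399904), the arginine and lysine transporter CAT1 of most cells, was at 17.8, 23.6 and 18.7 CPM at rest, 60.2, 60.1 and 55.3 CPM after stimulation and 52.8, 54.2 and 57.9 CPM under difamilast. All 6 libraries with cytokines lay above all resting libraries, and the log2 fold change was 1.54 ± 0.13 with stimulation (adjusted p = 2.13e-07) and -0.09 ± 0.12 under difamilast (adjusted p = 0.806). Slc7a2 (chr8:40862396-40922308), the transporter CAT2 that macrophages induce together with arginine-using enzymes, was at 46.7, 45.2 and 46.2 CPM, then 116, 121 and 119 CPM, and 99.5, 92.4 and 101 CPM under difamilast. The 3 groups did not overlap. Stimulation gave 1.37 ± 0.10 (adjusted p = 3.93e-08), and difamilast gave -0.29 ± 0.09, not called (adjusted p = 0.135) except in a fit of the 2 groups alone (adjusted p = 0.0302), with a length trend removed (adjusted p = 0.0331) and without resting replicate 1 (adjusted p = 0.0248). Slc7a2 shares 635 exonic bases with Gm26584 on the opposite strand, a symbol not in the table.

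Of the remaining Slc7 symbols all but Slc7a6os were low. Slc7a15 had 7, 4 and 0 counts in the resting libraries and reached 2.76, 3.53 and 3.21 CPM in the stimulated libraries, a log2 fold change of 3.54 ± 0.43 (adjusted p = 1.26e-05) whose size rests on those few resting counts. Slc7a3, Slc7a4 and Slc7a14 had group means between 0.306 and 5.05 CPM and were not called in either comparison, although Slc7a4 was called lower with stimulation under library totals. Slc7a6os (chr8:106200717-106210935), which lies next to Slc7a6 on the other strand and encodes a protein that is no transporter, was at 33.8, 44.3 and 54.7 CPM at rest, 78.4, 74.7 and 55.1 CPM after stimulation and 73.8, 74.7 and 68.3 CPM under difamilast. It rose by 0.65 ± 0.16 (adjusted p = 0.00679) although resting replicate 3 and stimulated replicate 3 nearly touched, and the call was lost without stimulated replicate 1 (0.52, adjusted p = 0.0544) and under library totals. Counted over the family, 6 of 12 tested Slc7 symbols rose and 1 fell with stimulation (3 and 3 under library totals). That is a called share of 58.3%, against 31.7% of all tested genes. Under difamilast 2 rose and 0 fell (16.7%, against 3.44% of all tested genes). The family sum, Slc7a6os included, went from 749 to 916 CPM at rest to 1124 to 1154 CPM after stimulation and 1358 to 1467 CPM under difamilast.

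The glutamate and neutral amino acid transporters of Slc1 were mostly not called. Slc1a5 (chr7:16781340-16798274), the glutamine transporter ASCT2, was at 63.8, 45.5 and 48.1 CPM at rest, 41.8, 43.4 and 43 CPM after stimulation and 48.4, 45.1 and 34.8 CPM under difamilast. The stimulated libraries lay just below the resting libraries, and the log2 fold change of -0.30 ± 0.15 was not called (adjusted p = 0.146), while it was called without resting replicate 2 (-0.44, adjusted p = 0.0492) and under library totals. Under difamilast it was 0.00 ± 0.15 (adjusted p = 0.997). Slc1a4 (chr11:20302180-20332713), the alanine and serine transporter ASCT1, was at 4.76, 1.87 and 1.14 CPM, then 6.66, 3.24 and 3.08 CPM, and 4.40, 3.51 and 2.47 CPM under difamilast. Its groups overlapped and it was not called with stimulation (0.61 ± 0.42, adjusted p = 0.304) or under difamilast (-0.24 ± 0.39, adjusted p = 0.85), although stimulation was called without resting replicate 1 (1.32, adjusted p = 0.0224).

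The other 4 Slc1 genes, glutamate transporters known mainly from brain and retina, had group means between 0.776 and 4.45 CPM. Slc1a2 rose 2.16-fold from 0.793 ± 0.183 to 1.70 ± 0.336 CPM (adjusted p = 0.0157), a call lost without resting replicate 1 (adjusted p = 0.0732) or stimulated replicate 2 (adjusted p = 0.0712). Slc1a7 rose 1.66-fold from 2.53 ± 0.437 to 4.34 ± 1.11 CPM (adjusted p = 0.0398), and lost the call without resting replicate 1 or 3 or stimulated replicate 1 or 2 (adjusted p from 0.0876 to 0.166), with limma-voom (adjusted p = 0.0776), with no filter on low counts (adjusted p = 0.0508) and in a fit of the 2 groups alone (adjusted p = 0.0583). Under library totals neither was called (adjusted p = 0.154 for Slc1a2 and 0.544 for Slc1a7). In the family 2 of 6 rose and 0 fell with stimulation (0 and 1 under library totals). That is a called share of 33.3%, near the 31.7% of all tested genes. Under difamilast 0 of 6 were called, where 3.44% of all tested genes were.

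In the sodium-coupled Slc38 family 3 members fell with stimulation and the other 4 tested were not called. Slc38a1 (chr15:96571418-96642913), the glutamine importer SNAT1, was at 59.1, 65.6 and 62.8 CPM at rest, 38.8, 40.7 and 41.3 CPM after stimulation and 49.3, 48.2 and 44.0 CPM under difamilast. The 3 groups did not overlap, with difamilast between the others. The log2 fold change was -0.63 ± 0.11 with stimulation (adjusted p = 0.000282), and the difamilast value of 0.23 ± 0.10 was not called (adjusted p = 0.329). Slc38a2 (chr15:96687392-96699730), the amino acid-regulated importer SNAT2, was at 155, 134 and 117 CPM, then 119, 103 and 126 CPM, and 117, 110.2 and 105 CPM under difamilast. Its groups overlapped and neither stimulation (-0.22 ± 0.12, adjusted p = 0.178) nor difamilast (-0.06 ± 0.12, adjusted p = 0.872) was called, the first being called lower under library totals.

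Slc38a9 and Slc38a7, both of the lysosome, fell. Slc38a9 (chr13:112660751-112738749), the arginine sensor that reports lysosomal arginine to mTORC1, was at 29.7, 26.8 and 34.2 CPM at rest, 16.2, 22.8 and 24.6 CPM after stimulation and 22.7, 20.9 and 21.5 CPM under difamilast. It fell by 0.49 on the log2 scale (SE 0.16, adjusted p = 0.0277), with no overlap, and the call was lost without resting replicate 3 (-0.43, adjusted p = 0.0729), stimulated replicate 1 (-0.38, adjusted p = 0.0877) or stimulated replicate 2 (-0.54, adjusted p = 0.0537). Slc38a7 (chr8:95835920-95853539), which exports glutamine and asparagine from lysosomes, was at 17.3, 28.8 and 22.5 CPM, then 11.2, 14.8 and 10.8 CPM, and 10.9, 12.4 and 19.6 CPM under difamilast. All stimulated libraries lay below all resting libraries, by a log2 fold change of -0.89 ± 0.23 (adjusted p = 0.00871), and the difamilast value of 0.20 ± 0.23 was not called (adjusted p = 0.764).

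The other Slc38 members were not called in either comparison. Slc38a6 kept within 88.7 to 114 CPM over all 9 libraries, with a stimulation value of 0.13 ± 0.09 that turned to -0.40 under library totals (adjusted p = 0.00698). Slc38a10 went from 111 ± 18.4 CPM at rest to 84.5 ± 7.56 after stimulation and 107 ± 22.3 under difamilast, and its stimulation value of -0.39 ± 0.15 missed the threshold (adjusted p = 0.0621). It was called lower with RLE scaling (adjusted p = 0.0451), DESeq2 (adjusted p = 0.0417), no filter on low counts (adjusted p = 0.00999), the 2 groups alone (adjusted p = 0.0429) and library totals (-0.93, adjusted p = 0.000215), and also when resting replicate 2 was left out (adjusted p = 0.0106) and when difamilast replicate 2 was (adjusted p = 0.0407). Slc38a11 was at 1.31 to 1.95 CPM. Over the family 0 of 7 rose and 3 fell with stimulation (0 and 6 under library totals). That is a called share of 42.9%, against 31.7% of all tested genes. Under difamilast 0 of 7 were called, where 3.44% of all tested genes were.

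All 3 Slc36 transporters that were tested, which are proton-coupled, fell with stimulation. With Slc36a1os, which was not called, the called share was 75% of 4 tested Slc36 symbols, against 31.7% of all tested genes. Slc36a1 (chr11:55204350-55236330), the lysosomal exporter PAT1 of small neutral amino acids, was at 31.1, 25.3 and 23.8 CPM at rest, 15.8, 15.5 and 17.2 CPM after stimulation and 12.7, 16.1 and 15.3 CPM under difamilast. Slc36a4 (chr9:15709738-15743361), the proline and tryptophan transporter PAT4, was at 29.3, 22.8 and 19.8 CPM, then 12.1, 11.9 and 13.3 CPM, and 11.9, 14.2 and 11.3 CPM under difamilast. For both, every library with cytokines lay below every resting library. Slc36a2 (chr11:55158470-55185077), the glycine and proline transporter PAT2, was at 10.3, 6.33 and 5.32 CPM, then 4.66, 2.94 and 2.50 CPM, and 3.86, 3.65 and 4.03 CPM. Log2 fold changes with stimulation were -0.73 ± 0.15 for Slc36a1 (adjusted p = 0.00167), -0.95 ± 0.17 for Slc36a4 (adjusted p = 0.000429) and -1.21 ± 0.27 for Slc36a2 (adjusted p = 0.00337). Under difamilast none of the 4 tested Slc36 symbols was called, where 3.44% of all tested genes were. The values were -0.14 ± 0.15, 0.00 ± 0.16 and 0.26 ± 0.27 for Slc36a1, Slc36a4 and Slc36a2 (adjusted p = 0.74, 0.994 and 0.741). The antisense symbol Slc36a1os, at 1.22 to 1.69 CPM, was called in neither, and under library totals it too was called lower with stimulation.

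The Slc43 family held the widest stimulation changes among members above 5 CPM, in opposite directions. Slc43a3 (chr2:84936579-84958509) was at 7.62, 7.93 and 8.61 CPM at rest, 45.7, 45.7 and 51.6 CPM after stimulation and 30.9, 27.7 and 30.4 CPM under difamilast. The 3 groups were separate, with difamilast between resting and stimulated. Log2 fold changes were 2.57 ± 0.13 with stimulation (adjusted p = 1.1e-09) and -0.68 ± 0.12 under difamilast (adjusted p = 0.00283), both called with every library left out in turn. Slc43a2 (chr11:75531694-75577575), the uniporter LAT4, was at 114, 79.9 and 77.3 CPM, then 22.9, 21.4 and 23.6 CPM, and 22, 20.5 and 22.7 CPM under difamilast. Every library with cytokines lay far below every resting library, and the values were -2.0 ± 0.15 with stimulation (adjusted p = 5.99e-08) and -0.06 ± 0.14 under difamilast (adjusted p = 0.907). Slc43a2 shares 922 exonic bases with Gm45606 on the opposite strand, which itself stood at 2.55, 0.947 and 0.812 CPM in the 3 groups. Slc43a1, the related uniporter LAT3, was at 0.317 to 0.651 CPM and was not called.

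Set against resting cells, difamilast-treated cells had 12 of 33 members higher, 7 lower and 14 not called, a called share of 57.6% against 32.8% of all tested genes (16.4% in each direction). The groups did not overlap for 22 members (66.7%, against 42.9%). This comparison shares its resting libraries with the first and its difamilast libraries with the second, so it is no separate evidence and its values are set beside theirs. Slc3a2, Slc7a5 and Slc7a11, not called with stimulation alone, were 1.57-fold, 2.18-fold and 1.70-fold above resting (adjusted p = 0.000669, 4.32e-05 and 2.73e-05), and the calls of Slc3a2 (adjusted p = 0.434) and Slc7a11 (adjusted p = 0.084) were lost under library totals. Slc43a3 was 3.70-fold above resting under difamilast and 5.95-fold without it. Slc38a6 was 1.20-fold above resting (adjusted p = 0.0399), a call lost when any 1 library other than resting replicate 1 was left out (adjusted p from 0.0504 to 0.142), and also with RLE scaling (adjusted p = 0.077), no filter on low counts (adjusted p = 0.156) and the 2 groups alone (adjusted p = 0.0972), and turned to -0.24 under library totals. Slc7a7 and Slc7a8, called with stimulation, were not called here (adjusted p = 0.101 and 0.0628). Slc7a7 was called lower under library totals (adjusted p = 0.00525) and with no filter on low counts (adjusted p = 0.0344). Slc7a8 was called higher with limma-voom (adjusted p = 0.0455), with the length trend removed (adjusted p = 0.036) and without resting replicate 1 (adjusted p = 0.0167). The difference itself, tested as difamilast against stimulated, was not called for either in the main fit. Under library totals the split was 7 higher and 12 lower, and higher genes made up 13.7% of all called genes in place of 50%. Summed over all 42 symbols, those ending in "os" included, transcripts came to 1971 to 2374 CPM at rest, 2327 to 2392 CPM after stimulation and 2718 to 3129 CPM under difamilast.

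Other amino acid transporters were followed through 28 symbols outside the 6 families, of which 23 were tested. With stimulation 2 rose and 12 fell (60.9%, against 31.7% of all tested genes, median log2 fold change -0.46), and under difamilast 1 rose and 1 fell (8.7%, against 3.44%). Slc6a9, the glycine transporter GLYT1, went from 143, 90.3 and 91.4 CPM at rest to 13.0, 11.8 and 11.6 CPM, 8.97-fold lower (adjusted p = 2.84e-09), and Slc6a6, the taurine transporter, was 2.55-fold lower (adjusted p = 1.89e-06). Mfsd12, a lysosomal cysteine importer, was 2.00-fold lower with stimulation (adjusted p = 0.000205), and the mitochondrial carrier Slc25a39 was 1.85-fold lower (adjusted p = 8.06e-05). Slc15a3, a lysosomal exporter of histidine and small peptides, was at 228, 219 and 217 CPM in stimulated cells and 431, 432 and 386 CPM under difamilast, 1.88-fold higher (adjusted p = 0.000307). Mfsd12 was 1.74-fold lower under difamilast (adjusted p = 0.0107), a call lost without stimulated replicate 1 or 2 or difamilast replicate 1 or 2 (adjusted p from 0.0502 to 0.0743).

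Of 33 tested enzymes that use or break down amino acids, 5 rose and 1 fell under difamilast (18.2%, against 3.44% of all tested genes). With stimulation 5 of them rose and 14 fell (57.6%, against 31.7% of all tested genes). The median log2 fold change with stimulation was -0.36, against 0.06 over all tested genes. Hdc, which makes histamine from histidine, was at 2257, 2218 and 2355 CPM in stimulated cells and 4902, 4570.2 and 4082 CPM under difamilast, 1.98-fold higher (adjusted p = 0.00028). Arg2, the mitochondrial arginase, rose from 9.04, 7.01 and 9.05 CPM to 28.2, 25.0 and 25.3 CPM, 3.15-fold (adjusted p = 3.07e-05), and Got1, the cytosolic aspartate aminotransferase, rose 2.22-fold (adjusted p = 0.00242). Il4i1, a secreted oxidase of phenylalanine and tryptophan, rose 3.84-fold with stimulation (adjusted p = 1.44e-07) and was 2.09-fold lower under difamilast than in stimulated cells (adjusted p = 0.000449). With stimulation, Tph1, the first enzyme of serotonin synthesis, rose 5.48-fold (adjusted p = 2.3e-10), Arg1, the cytosolic arginase, rose 3.11-fold (adjusted p = 6.97e-07), and Glul, which makes glutamine, was 1.99-fold lower (adjusted p = 3.8e-06). The list mixes synthesis and breakdown, so its counts have no single direction.

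**Figure D4:**
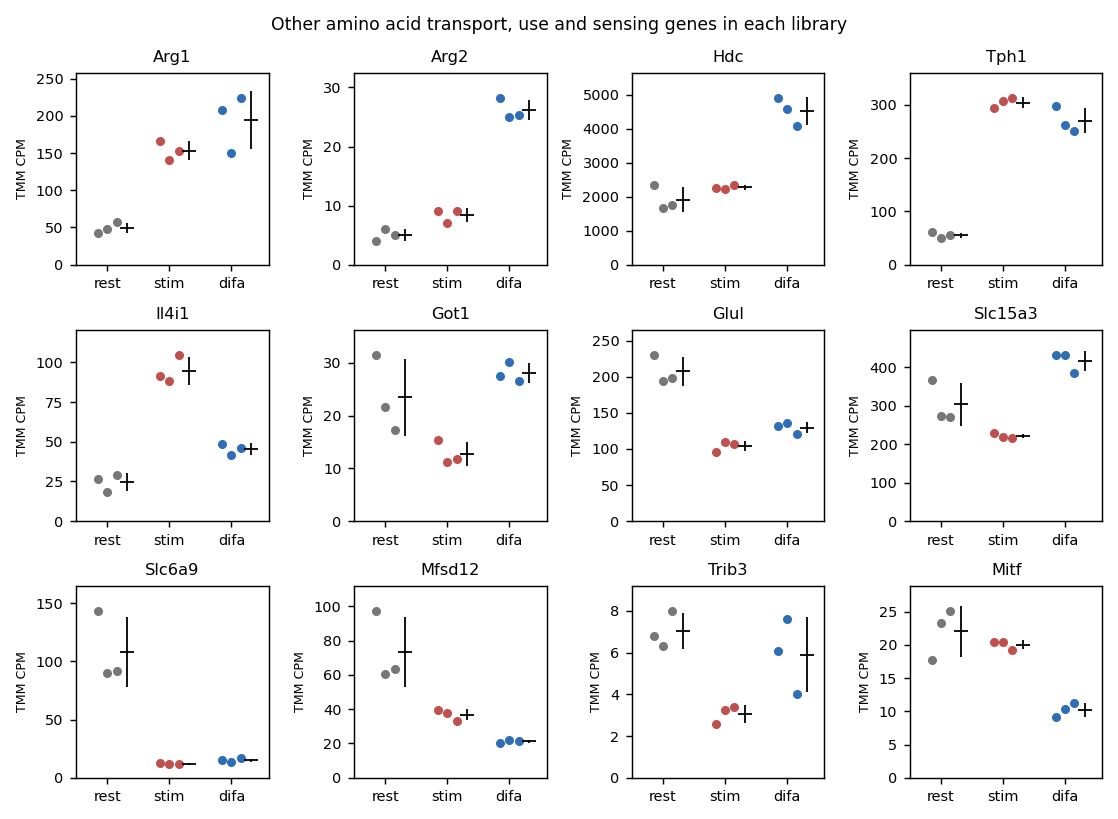
TMM-normalised CPM of 12 genes of amino acid use, transport or sensing in each library (circles) with mean ± SD over 3 libraries (crosses), for resting (rest), stimulated (stim) and difamilast (difa) cells, each axis starting at 0. Arg2, Hdc and Slc15a3 are highest in the 3 difamilast libraries, Il4i1 is highest in the stimulated libraries, and Slc6a9 is highest in the resting libraries.

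The amino acid response was followed through genes that are mostly targets of the transcription factor ATF4. Of 38 tested, 10 rose and 8 fell with stimulation (47.4%, against 31.7% of all tested genes, median log2 fold change 0.09), with Sesn2 2.43-fold, Atf3 2.30-fold, Gadd45a 2.09-fold and Wars 1.99-fold higher (adjusted p = 6.72e-07, 2.14e-06, 4.01e-06 and 2.29e-05), the first being a leucine-binding inhibitor of mTORC1 signalling. Under difamilast 1 of 38 rose (2.63%, against 3.44% of all tested genes) and 0 fell. That gene was Trib3, a pseudokinase that dampens ATF4, at 2.57, 3.27 and 3.37 CPM in stimulated cells and 6.06, 7.60 and 4.03 CPM under difamilast (adjusted p = 0.0427). The call was lost when any of the stimulated libraries or difamilast replicate 1 or 2 was left out (adjusted p from 0.124 to 0.283). A block for the replicate number also removed it (adjusted p = 0.0603).

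Among 35 genes of mTORC1 and its amino acid sensors, 2 rose and 10 fell with stimulation, a called share of 34.3% beside 31.7% of all tested genes. Wdr59, a subunit of the GATOR complex that answers to amino acids, rose 2.61-fold (adjusted p = 3.09e-06), while Tfeb, the lysosomal transcription factor, Flcn and Sesn3 were 2.51-fold, 1.99-fold and 1.5-fold lower (adjusted p = 4.22e-05, 0.000583 and 0.00219). Under difamilast Mitf, a transcription factor related to Tfeb and known from mast cells and basophils, went from 20.5, 20.5 and 19.2 CPM to 9.13, 10.3 and 11.3 CPM, 1.96-fold lower (adjusted p = 0.0016). Fnip2, a partner of Flcn, was 1.33-fold higher (adjusted p = 0.0295). That call was lost when any stimulated library or difamilast replicate 1 or 2 was left out (adjusted p from 0.0904 to 0.168). Library totals (adjusted p = 0.0591) and a block for the replicate number (adjusted p = 0.0595) also removed it.

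Transcript length moved with both comparisons, in opposite directions. Among genes at 10 CPM or more, the median log2 fold change for difamilast against stimulated was -0.35 for transcripts under 1000 bases and 0.04 for those over 4000 bases. For stimulated against resting the medians were 0.22 under 1000 bases and -0.06 over 4000 bases. Tested members had transcripts of 1790 to 11595 bases (median 3926), and with a length trend removed Slc3a2, Slc7a5, Slc7a11 and Slc43a3 kept their difamilast calls and Slc7a2 was also called lower, while with stimulation Slc1a3 was also called higher (adjusted p = 0.0435).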

How the data were processed

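Bulk RNA-seq was measured in 9 libraries, 3 per group, with groups and replicate numbers taken from the sample titles. The deposited values are raw counts per gene symbol, in a single table of the series. Per the labels' protocols, mRNA was captured on oligo-dT beads and the cDNA was amplified as a whole transcriptome before fragmentation, so yield may depend on transcript length. Molecular identifiers are not mentioned there. The tools cutadapt 4.1 and Bowtie2 2.4.5 and the build GRCm38 are listed in the submitters' processing notes, without further detail. Which tool counted the reads, and whether by strand, is not given in the sources used here.

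Counts were fitted in 1 model of all 9 libraries (6 residual degrees of freedom) with edgeR 4.0.16 in R 4.3.3: TMM scaling, filterByExpr (minimum count 10, minimum total 15), robust quasi-likelihood test, Benjamini-Hochberg adjustment over 21341 genes, call at 0.05. Groups were said not to overlap where all libraries of 1 lay above all of the other in CPM. Levels are TMM-normalised CPM as mean ± SD. Levels per kb used the longest GENCODE vM21 transcript, and 34336 symbols matched that annotation. The edgeR steps were tested on simulated data.

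The alternatives were RLE scaling, DESeq2 1.42.0, limma-voom (limma 3.58.1), no filter, a fit of just the 2 groups at issue, a block for the replicate number, a length trend removed (lowess span 0.3) and each library left out. Library totals without TMM were a later choice, made once values were known. The members and the lists were chosen with earlier results of these data known. Values in every library are given for a fixed panel of members and for members called with at least 1.5-fold change and 5 CPM. Pathway genes are up to 4 called genes per list and comparison with the smallest p.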

Additional observations from a re-analysis of the deposited data

How the results depend on the processing

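For stimulated against resting, the counts of members higher (9) and lower (8) stayed within 1.5 times under every other setting and ranged from 7 to 9 higher and 6 to 10 lower with each library left out. Library totals without TMM, the exception, gave 4 higher and 16 lower, and turned Slc38a6 to -0.40, Slc3a2 to -0.46, Slc7a11 to -0.51 and Slc7a8 to -0.032 on the log2 scale; its own scaling shifts all genes down by the median given above. For difamilast against resting, library totals gave 7 members higher, 12 lower and 10979 genes called in place of 7001, and turned Slc38a6 to -0.24. With each library left out those counts ranged from 10 to 13 higher and 5 to 7 lower.

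For difamilast against stimulated, members higher were 3 under every alternative except 5 of the left-out libraries, where Slc3a2 was lost and 2 remained. Members lower were 3 with only the 2 groups compared, 2 with the length trend removed, and 1 to 3 with each library left out, the highest without resting replicate 1. All genes called, 735 in the report, were 1107 with DESeq2, 1351 with no filter, 1673 with only the 2 groups compared and 347 to 1693 with each library left out, the extremes being without difamilast replicate 2 and without resting replicate 1; the cause was not tested.

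The replicate block gave 10 members higher, 8 lower and 6489 genes for stimulated against resting, 3, 1 and 700 for difamilast against stimulated, and 11, 7 and 6652 for difamilast against resting. With the block the difamilast calls of Trib3 (adjusted p = 0.0603) and Fnip2 (adjusted p = 0.0595) and the call of Slc38a6 against resting (adjusted p = 0.0729) were lost, Slc1a4 was called higher with stimulation (adjusted p = 0.0464), and no other named gene changed its call. The labels do not say whether same-numbered libraries share a mouse or culture. Their correlations ran from -0.078 to 0.108, and 2 of 9 libraries correlated best with their own number. With 3 libraries per group these values cannot decide whether the libraries are paired. Over the named members and pathway genes, 71 values under alternatives lost a call, 33 gained 1, 5 with a call on either side changed sign, and 1995 kept their side of the threshold, among them uncalled values near 0 that changed sign. Depth limits the low members, since 13 stayed under 5 CPM and 1 count was worth up to 0.127 CPM.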
